A study of Homo sapiens with 3 samples.

Results

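NF-kB is represented here by 10 genes: the 5 subunits of the transcription factor (RELA, RELB, REL, NFKB1 and NFKB2), 3 genes of proteins that restrain the pathway or its outcome (NFKBIA, TNFAIP3 and BIRC3), and 2 genes that it switches on (ICAM1 and CCL2). They were chosen by symbol, and each matched 1 of the 50868 gene rows. All 10 passed the filter on low counts. The cells are NCI-H23, an established human lung adenocarcinoma line. One group received control siRNA (1 library) and the other siRNA against USP16 (2 libraries), which encodes a deubiquitinase acting on histone H2A. The labels name no stimulus of the pathway and no other agent. The dose and time of transfection, and whether the USP16 siRNA libraries differ in siRNA or in culture, are not stated in the labels. A p-value here reflects only scatter between the 2 USP16 siRNA libraries. That scatter is largely pooled over all genes, with little weight on the gene's own, and part of it may be technical. The single control adds no scatter of its own. Below, library 1 and library 2 are the USP16 siRNA libraries by the number in their labels, and 3 values in a row are control, library 1 and library 2.

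In resting cells NF-kB dimers are held in the cytoplasm by IkB proteins. Receptors for inflammatory cytokines or microbial products activate the IKK kinase complex, which marks IkB for destruction, so that the dimers enter the nucleus and bind short kappaB sites in DNA. Their targets include NFKBIA and TNFAIP3, whose products shut the pathway down again, several subunit genes, and effectors such as adhesion molecules and chemokines. A second, slower branch depends on processing of the NFKB2 precursor and on RELB.

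The libraries held 14007161, 13956382 and 15071179 counts. USP16 had 632, 109 and 245 counts, or 47.4, 7.68 and 15.7 CPM (read counts relative to library size, adjusted by trimmed means of M-values, TMM), 83.8% and 66.8% below the control. Of 6 epithelial markers, KRT8 (2214, 1118 and 1880 counts) and KRT18 (2903, 1986 and 3364 counts) held most of the counts, and the 6 summed to 408, 238 and 364 CPM. EPCAM went the other way from the sum, with 38, 161 and 232 counts, and CDH1 had 142, 39 and 93. The lung lineage genes SFTPB and SFTPC were at 0 in every library, NKX2-1 had 6, 4 and 10 counts and NAPSA 20, 20 and 9. These 4 summed to 1.95, 1.69 and 1.22 CPM, so lung lineage markers were all but absent. Leukocyte markers summed to 12.8, 19.1 and 12.3 CPM, nearly all from CD14 and CD68, with PTPRC at 0, 0 and 1 counts, and 4 endothelial markers summed to under 1 CPM. Fibroblast markers summed to 73.9, 67.4 and 59.1 CPM, most of it COL1A1 (918, 881 and 700 counts), and LUM had 20, 26 and 140 counts. In bulk RNA, fewer cells that express a gene and less RNA per cell cannot be told apart.

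The DNA letters before the start sites show what many of these genes share. RefSeq promoters (GRCh38.p14, the 250 bases before each start) were found for 8 of the 10 members, all but RELB and CCL2. They were searched on both strands for the 10-base kappaB consensus GGGRNWYYCC, and for the relaxed motif GGNNNTTCC, which overlaps it. In these motifs R is A or G, W is A or T, Y is C or T and N is any base. The consensus occurred before at least 1 start of 6 of these 8 genes (75.0%), against 6.28% of the 27305 genes with a promoter in the table. The relaxed motif occurred in 7 of 8 (87.5%), against 20.2%. Per promoter of this length, 5.21% of 35116 held the consensus and 17.1% the relaxed motif. The members were picked as NF-kB genes, so the shares are a description, and a match is not evidence of binding in these cells. RELA had no match at either of its 2 starts. The 30-base windows below are shown so that the sites of the subunit genes, of the feedback genes and of ICAM1 can be set side by side. They read 5′ to 3′ on the strand of the gene, and capitals mark the matched motif letters of the site shown. For NFKBIA, TNFAIP3 and BIRC3 the consensus matched on the strand opposite to the gene, so their capitals fit its reverse complement. The REL capitals join overlapping matches on both strands. The TNFAIP3 window also holds, in lower case, part of another match of that gene.
NFKB1 (chr4:102501300-102501329, plus strand): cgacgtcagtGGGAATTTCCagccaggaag
REL (chr2:60881518-60881547, plus strand): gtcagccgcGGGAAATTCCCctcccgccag
NFKB2 (chr10:102395674-102395703, plus strand): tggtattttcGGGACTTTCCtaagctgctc
NFKBIA (chr14:35404811-35404840, minus strand): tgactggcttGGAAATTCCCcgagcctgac
TNFAIP3 (chr6:137867194-137867223, plus strand): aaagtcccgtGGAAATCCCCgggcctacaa
BIRC3 (chr11:102317275-102317304, plus strand): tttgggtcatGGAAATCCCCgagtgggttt
ICAM1 (chr19:10270924-10270953, plus strand): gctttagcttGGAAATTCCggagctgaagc

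TNFAIP3 and BIRC3 carried the same 10 letters at different distances, -55 to -46 and -199 to -190 from the start, where -1 is the base just before it. TNFAIP3 had another consensus match at -67 to -58, and BIRC3 another at -135 to -126. In REL and NFKB1 the match lay close to the start, at -47 to -37 and at -49 to -40. NFKB2 had none before the first of its 3 starts, and matches before start 2 (-107 to -97 and -78 to -69) and start 3 (-176 to -167, and -21 to -12 in the window shown). The ICAM1 window held the relaxed motif only (-186 to -178), and lies within an exon of a longer ICAM1 transcript in GENCODE release 29. The windows shown for REL, NFKB1, NFKB2 and TNFAIP3 also overlap annotated exons, in part or in whole, while those shown for NFKBIA and BIRC3 do not. No promoter base of NFKBIA lies in an annotated exon, and its whole window is printed because it holds a consensus match (-81 to -72) and a second relaxed match (-242 to -234) in 1 short region of chr14:35404750-35404999, minus strand.
NFKBIA: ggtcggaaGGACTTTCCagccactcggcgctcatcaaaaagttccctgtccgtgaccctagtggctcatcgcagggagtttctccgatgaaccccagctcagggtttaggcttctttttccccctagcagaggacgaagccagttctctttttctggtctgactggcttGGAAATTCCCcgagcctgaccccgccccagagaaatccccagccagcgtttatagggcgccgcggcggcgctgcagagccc

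**Figure D1:**
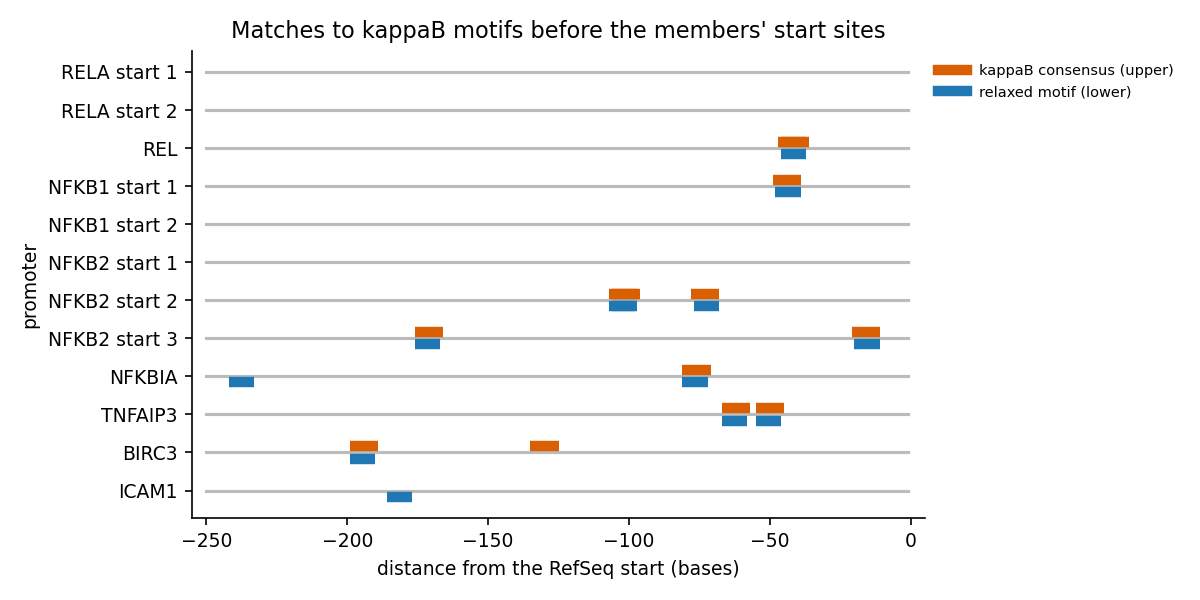
Positions of motif matches in the 250 bases before each RefSeq start of the 8 members with a promoter entry; the horizontal axis is the distance from the start in bases, upper bars are the kappaB consensus and lower bars the relaxed motif. REL, NFKB1 and TNFAIP3 have their matches between -67 and -37, BIRC3 between -199 and -126 and ICAM1 at -186 to -178, and RELA has none.

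The comparison of USP16 siRNA with control siRNA asks how these transcripts respond to loss of USP16. Both effector genes, ICAM1 and CCL2, were more than 2-fold lower in each USP16 siRNA library. The subunit and feedback genes gave another picture: most were lower in library 1 and nearer to the control, or above it, in library 2. No member passed an adjusted p of 0.05 over all genes (edgeR quasi-likelihood test, 17287 genes, of which 3, or 0.0174%, passed). At an unadjusted p under 0.05, 2 of 10 members were found, against 4.88% of all genes, and DESeq2 also called 0 of 10. The test rests on 1 residual degree of freedom, since the control is a single library, and both changes of a gene share that control. USP16, the target of the siRNA, did not pass the adjusted threshold either, with an edgeR log2 change of -2.02 (SE 0.49). A member that did not pass can therefore not be read as unchanged.

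ICAM1 is the adhesion molecule through which leukocytes bind endothelium and epithelium. The gene lies at chr19:10270835-10286615 on the plus strand. It had 3621, 1301 and 1100 counts, which is 272 CPM for the control (95% interval 263 to 281, exact Poisson), 91.7 for library 1 and 70.6 for library 2. The control was therefore far above both USP16 siRNA libraries, which stood 66.3% and 74.0% below it. The control exceeded library 1 by 2.96 times (exact binomial 95% interval 2.78 to 3.16) and library 2 by 3.85 times (3.59 to 4.12). These intervals cover counting error only. The mean log2 change was -1.75 ± 0.27 (SD, n = 2), an SD that leaves out the variation of the control. The edgeR fit gave -1.74 (SE 0.40, unadjusted p = 0.000786, adjusted p = 0.518). Of 6 alternatives, ICAM1 passed in one, the fit without a low-count filter (adjusted p = 0.0166), and the adjusted p was as high as 0.836 with a minimum mean of 100 counts. Among the 6, the prior count of 10 enters only the log2 changes per library and could not alter this call. Antisense transcripts that overlap ICAM1 had at most 2 counts.

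CCL2 encodes the chemokine that draws monocytes into tissue, and lies at chr17:34255218-34257203 on the plus strand. It had 300, 139 and 79 counts, or 22.5 CPM in the control (20.0 to 25.2), 9.80 in library 1 and 5.07 in library 2. Library 2 was thus the lowest, as for ICAM1, and the control the highest. The control exceeded library 1 by 2.30 times (1.87 to 2.83) and library 2 by 4.44 times (3.45 to 5.76). The log2 change was -1.19 and -2.12, with an edgeR estimate of -1.60 (SE 0.54, unadjusted p = 0.0112, adjusted p = 0.893). Across alternatives its adjusted p ranged from 0.363 to 1.0.

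**Figure D2:**
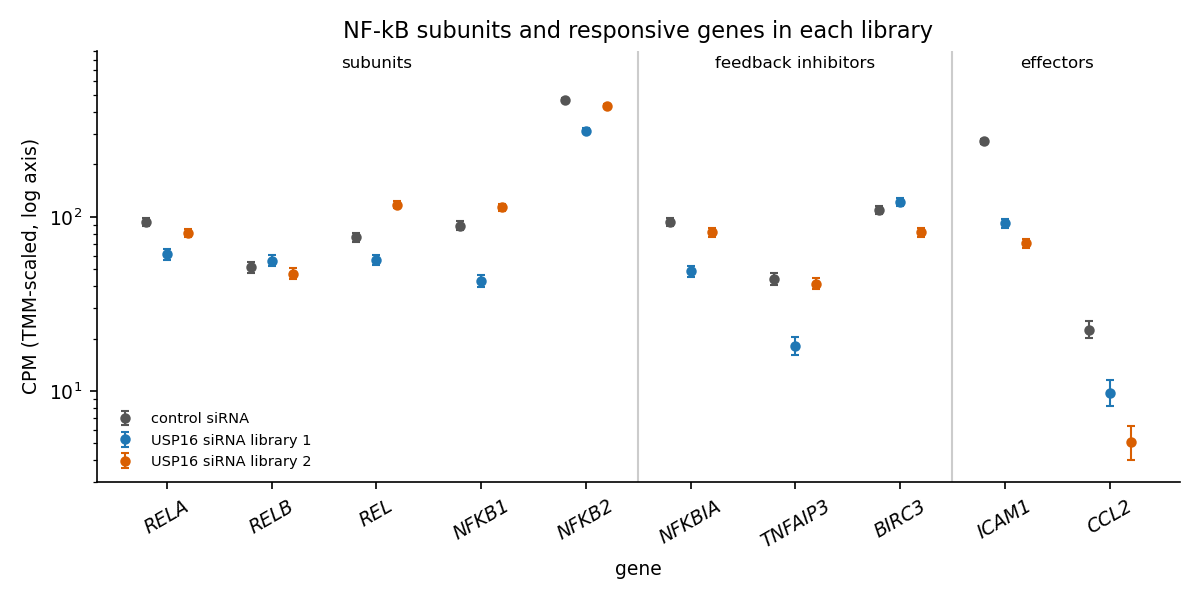
CPM of each member in the control and the USP16 siRNA libraries, on a log axis, with exact Poisson 95% intervals that cover counting error only. ICAM1 and CCL2 are highest in the control, while NFKB1, NFKBIA and TNFAIP3 are lowest in library 1.

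Among the feedback genes, NFKBIA and TNFAIP3 were lowest in library 1. NFKBIA (chr14:35401511-35404749, minus strand) encodes IkB-alpha, the inhibitor that is resynthesised after each activation. It had 1248, 691 and 1267 counts, or 93.6, 48.7 and 81.4 CPM. Library 1 was at 52.0% of the control and library 2 at 86.9%. Under TMM scaling library 2, too, was lower beyond counting error (ratio 0.87, interval 0.80 to 0.94). The log2 changes were -0.94 and -0.20, and the second moved to -0.08 when libraries were scaled by total counts only. The edgeR estimate was -0.53 (SE 0.45, adjusted p = 0.999).

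TNFAIP3 (chr6:137867188-137883312, plus strand) encodes a ubiquitin-editing enzyme that ends signalling below the TNF receptor. It had 589, 258 and 645 counts, or 44.2, 18.2 and 41.4 CPM. Library 1 was at 41.2% of the control, while library 2, at 93.7%, was not distinguishable from it by counting error (ratio to control 0.94, interval 0.84 to 1.05). Its log2 changes were -1.28 and -0.09, and the second turned to 0.03 when libraries were scaled by total counts only. The edgeR estimate was -0.57 (SE 0.50, adjusted p = 0.999).

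BIRC3 (chr11:102317450-102339403, plus strand) encodes an inhibitor of apoptosis protein that acts as a ubiquitin ligase at the TNF receptor and restrains the NFKB2 branch. It went the other way, with 1455, 1727 and 1268 counts, or 109, 122 and 81.4 CPM. Library 1 was the highest of the 3 and library 2 the lowest, so the control lay between them. The log2 changes were 0.16 and -0.42 (edgeR -0.10, SE 0.43, adjusted p = 0.999). The 3 feedback genes thus did not keep one order of libraries.

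Of the subunits, NFKB1 differed most between the USP16 siRNA libraries. NFKB1 (chr4:102501329-102617302, plus strand) encodes the precursor of a DNA-binding subunit that pairs with RELA. It had 1186, 605 and 1765 counts, or 89.0, 42.6 and 113 CPM. Library 1 was at 47.9% of the control and library 2 at 127%. Library 2 exceeded library 1 by 2.66 times (2.42 to 2.92). The log2 changes, -1.06 and 0.35, differed in sign, and edgeR gave -0.19 (SE 0.53, adjusted p = 0.999).

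REL (chr2:60881521-60931610, plus strand) encodes c-Rel, an activating subunit best known from lymphocytes. It had 1019, 803 and 1833 counts, or 76.4, 56.6 and 118 CPM. As for NFKB1, library 1 was the lowest and library 2 the highest, 2.08 times library 1 (1.91 to 2.26). Its log2 changes were -0.43 and 0.62 (edgeR 0.19, SE 0.49, adjusted p = 0.999). REL shares 5702 exonic bases on the same strand with the noncoding gene ENSG00000267520, which had 1222, 1011 and 2000 counts. Reads in the shared bases cannot be told apart.

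RELA, the main activating subunit of the rapid branch (chr11:65653596-65663094, minus strand), had 1248, 864 and 1263 counts, or 93.6, 60.9 and 81.1 CPM. Both USP16 siRNA libraries were below the control, library 1 by 35.0% and library 2 by 13.4%. The log2 changes were -0.62 and -0.21 (edgeR -0.40, SE 0.42, adjusted p = 0.999).

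NFKB2 and RELB carry the slower branch. NFKB2 (chr10:102394110-102402529, plus strand) had 6278, 4446 and 6751 counts, or 471, 313 and 433 CPM, with log2 changes of -0.59 and -0.12. RELB (chr19:45001430-45038198, plus strand) had 683, 797 and 733 counts, or 51.2, 56.2 and 47.1 CPM. Library 1 of NFKB2 was 33.5% below the control, while the 3 levels of RELB lay close together, with log2 changes of 0.13 and -0.12. The edgeR estimates were -0.34 (SE 0.39) for NFKB2 and 0.01 (SE 0.43) for RELB, both with an adjusted p of 0.999.

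**Figure D3:**
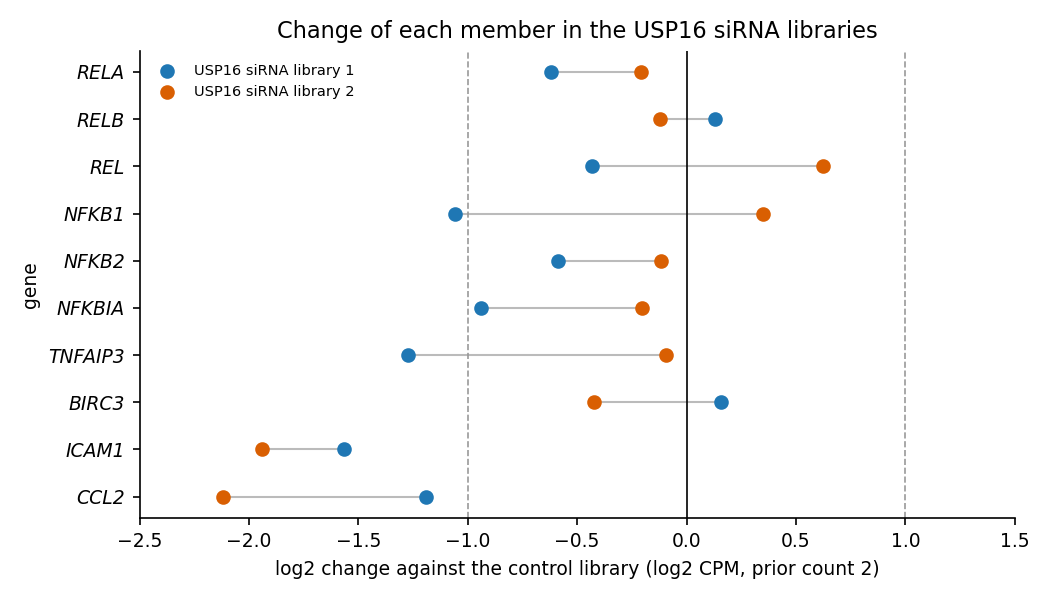
Log2 change of each member against the single control library (log2 CPM, prior count 2), with library 1 in blue, library 2 in orange and dashed lines at 2-fold. ICAM1 and CCL2 lie beyond the 2-fold line in both libraries, and NFKB1 and REL lie on opposite sides of 0.

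Counted over the members, 4 of 10 (ICAM1, CCL2, NFKB1 and TNFAIP3) were at least 2-fold lower than the control in library 1, where 5.55% of all genes were. In library 2, 2 of 10 (ICAM1 and CCL2) were, against 8.97% of all genes. No member was at least 2-fold higher in either library, against 7.05% of all genes in library 1 and 9.94% in library 2. The members' medians were -0.78 in library 1 and -0.16 in library 2, beside 0.00 in both for all genes tested. NFKB1 was at -0.96 in library 1 when libraries were scaled by total counts only, which leaves 3 of 10 there.

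The control stood above both USP16 siRNA libraries for 6 of 10 members, where 33.5% of all genes did, and below both for 0 of 10, where 33.4% did. Total-count scaling shifted the median change of all genes to 0.10 and 0.11 and left 5 of 10, without TNFAIP3, against 26.1% of all genes. Under that scaling NFKB2 stayed among them only by a log2 change of -0.001 in library 2, where NFKBIA was at -0.08 and RELA at -0.09. Set against each other, library 2 was at least 2-fold above library 1 for 3 of 10 members (NFKB1, REL and TNFAIP3), against 7.71% of all genes, and at least 2-fold below it for 0 of 10, against 8.02%. Each of these is 1 library against 1, with no test. USP16 was lower in library 1 than in library 2, as were the summed epithelial markers, though not EPCAM, which was above the control in both. Their part in the difference between the libraries was not tested.

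The subunits and their partners are compared here per kilobase of exons, as CPM divided by the summed exon length in GENCODE release 29. In the control the order was NFKB2 (105), ICAM1 (73.3), NFKBIA (39.5), RELA (17.1), RELB (16.9), BIRC3 (14.5), NFKB1 (14.2), CCL2 (11.3), TNFAIP3 (8.75) and REL (5.80 CPM per kilobase). RELA (16.2 to 18.1) and RELB (15.6 to 18.2) did not differ beyond counting error, nor did BIRC3 (13.8 to 15.3) and NFKB1 (13.4 to 15.1). NFKB2 lay at percentile 98.0 of the 17190 tested genes with an exon length and REL at 58.9. The low place of REL depends on its long annotated exons, 13170 bases, of which 5702 are shared with ENSG00000267520. How reads in the shared bases were assigned is not known.

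NFKB2 was the most abundant of the 5 subunit transcripts in each library. It made up 66.0% of their summed level per kilobase in the control, 63.2% in library 1 and 62.8% in library 2. The sum itself was 159, 111 and 154 CPM per kilobase. NFKB1 took 8.94%, 6.16% and 11.7% of it, and RELB 10.6%, 16.7% and 10.1%, so library 1 had the smallest share of NFKB1 and the largest of RELB. In the order of all members ICAM1 had rank 2 in the control and in library 1 and rank 3, behind NFKBIA, in library 2. CCL2 was the lowest of the 10 in library 2, at 2.55 CPM per kilobase against 11.3 in the control, where it was eighth.

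The rest of the pathway was read from 6 lists of 99 genes that are no members, of which 89 passed the filter on low counts. None passed an adjusted p of 0.05 (edgeR, lowest 0.562), and 6 of 89 had an unadjusted p under 0.05, against 4.88% of all genes. In library 1, 23 (25.8%) were at least 2-fold lower and 2 (2.25%) at least 2-fold higher, against 5.55% and 7.05% of all genes. In library 2, 10 (11.2%) were at least 2-fold lower and 7 (7.87%) at least 2-fold higher, near the 8.97% and 9.94% of all genes. Their medians were -0.39 and -0.16. A gene at low counts can pass the filter through its higher library alone, so these counts are a description.

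Kinases at the level of IKK and their adaptors were listed apart from those at the receptors. Of the 11 in this list, including the IKK subunits CHUK, IKBKB and IKBKG, 0 were 2-fold lower or higher in either library, and the medians were 0.05 and 0.16. The control was below both USP16 siRNA libraries for 6 of the 11 (54.5%, against 33.4% of all genes). It was above both for 1 of the 11 (9.09%, against 33.5% of all genes). TBK1, a kinase related to IKK, had 988, 1116 and 1931 counts (log2 changes 0.09 and 0.74). CHUK, the catalytic subunit needed for the NFKB2 branch, had 1116, 1229 and 1972 (0.05 and 0.60). It overlaps ERLIN1 by 37 exonic bases. TAB1 and TAB2, adaptors of the kinase that activates IKK, were at 0.24 and 0.41, and at 0.13 and 0.32.

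The other IkB family genes had medians of -0.69 and -0.49 (5 genes). BCL3, a nuclear IkB protein, had 640, 432 and 453 counts (-0.66 and -0.72). NFKBID, likewise nuclear, had 221, 145 and 162 (-0.69 and -0.67), and NFKBIE, a cytoplasmic inhibitor, 233, 147 and 193 (-0.75 and -0.49). For these 3 genes the control was the highest of the libraries. NFKBIB, another cytoplasmic inhibitor, had 160, 293 and 266 counts (0.78 and 0.50) and was lowest in the control.

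Receptors and adaptors varied in both directions, with medians of -0.32 and -0.30 over the 24 of 26 genes that passed the filter. TNFRSF10B, a death receptor for TRAIL, had 3225, 976 and 3009 counts (-1.81 and -0.32). IL1RAP, the shared chain of the interleukin-1 receptor, had 617, 255 and 511 (-1.36 and -0.49). In these receptors library 1 alone was far from the control. TNFRSF1B, the second TNF receptor, had 205, 122 and 112 counts (-0.83 and -1.08), low in both. IRAK4, a kinase below the interleukin-1 and Toll-like receptors, had 100, 193 and 236 (0.85 and 1.00), and its partner MYD88, named after its values were seen, had 180, 396 and 115 (1.04 and -0.86).

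Genes of ubiquitin enzymes and their partners in the pathway had medians of -0.37 and -0.36 (15 genes), and the control was above both USP16 siRNA libraries for 10 of them (66.7%, against 33.5% of all genes). UBE2V1 and UBE2N together make the ubiquitin chains that activate the kinases. UBE2V1 had 4939, 2543 and 3769 counts (-1.05 and -0.61) and UBE2N 1352, 1105 and 773 (-0.38 and -1.03). Their reads are uncertain, since UBE2V1 shares 2066 exonic bases on the same strand with the readthrough gene TMEM189-UBE2V1 (1202, 977 and 1221 counts) and UBE2N 2474 on the other strand with NUDT4 (638, 118 and 714 counts). UBE2L3, which serves the linear ubiquitin ligase, had 2963, 1529 and 2661 (-1.04 and -0.38). TNIP1, which binds the TNFAIP3 protein and helps it to stop signalling, had 1021, 840 and 607 (-0.37 and -0.97). Which library was the lower one differed from gene to gene.

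The chemokines and cytokines differed most between the USP16 siRNA libraries, with medians of -0.88 in library 1 and 0.56 in library 2 over 14 of 20 genes. In library 1, 6 were at least 2-fold lower and 0 higher, while in library 2, 3 were lower and 5 higher (all genes: 5.55% and 7.05%, then 8.97% and 9.94%). Some of these rest on few counts, so the numbers are a description. CXCL6 (5, 8 and 18 counts), among the higher, passed the filter through library 2 alone. CXCL2 (13, 4 and 5 counts), among the lower in both libraries, passed through the control alone. Both were named after their values were seen. CXCL8 and CXCL1, which attract neutrophils, had 88, 80 and 240 counts (-0.22 and 1.21) and 35, 30 and 225 counts (-0.29 and 2.40). CCL5, which attracts T cells, had 208, 63 and 218 (-1.78 and -0.16). In library 2, CXCL8 and CXCL1 were above the control and CCL5 was near it, whereas CCL2 was far below. CX3CL1 (73, 24 and 25 counts, -1.62 and -1.69) and CXCL5 (40, 15 and 14 counts, -1.39 and -1.60), named after their values were seen, were low in both libraries like CCL2. LIF, a cytokine of the interleukin-6 family, had 4277, 2482 and 2933 counts (-0.88 and -0.77). CSF2 and CSF3 had 0 counts in every library, and IL6 had 6, 3 and 3.

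The remaining responsive genes had medians of -0.97 and -0.33 over 20 of 22 genes, with 10 of the 20 at least 2-fold lower in library 1, against 5.55% of all genes, and 2 of the 20 in library 2, near the 8.97% of all genes. BCL2L1 alone was at least 2-fold higher in library 1 and TNFAIP8 alone in library 2, both named after their values were seen. SDC4, a heparan sulfate proteoglycan of focal adhesions, had values near those of ICAM1, with 2946, 1097 and 846 counts (-1.51 and -2.02, edgeR adjusted p = 0.562). MMP9, a matrix protease, had 289, 145 and 141 counts (-1.08 and -1.25, adjusted p = 0.999). For both, the control was more than 2-fold above each USP16 siRNA library. PLAU, the urokinase protease, had 304, 59 and 218 counts (-2.42 and -0.70), and STX11, a membrane fusion protein, 129, 38 and 120 (-1.80 and -0.32). MMP9 overlaps SLC12A5-AS1 on the other strand, which had 43, 33 and 26 counts.

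**Figure D4:**
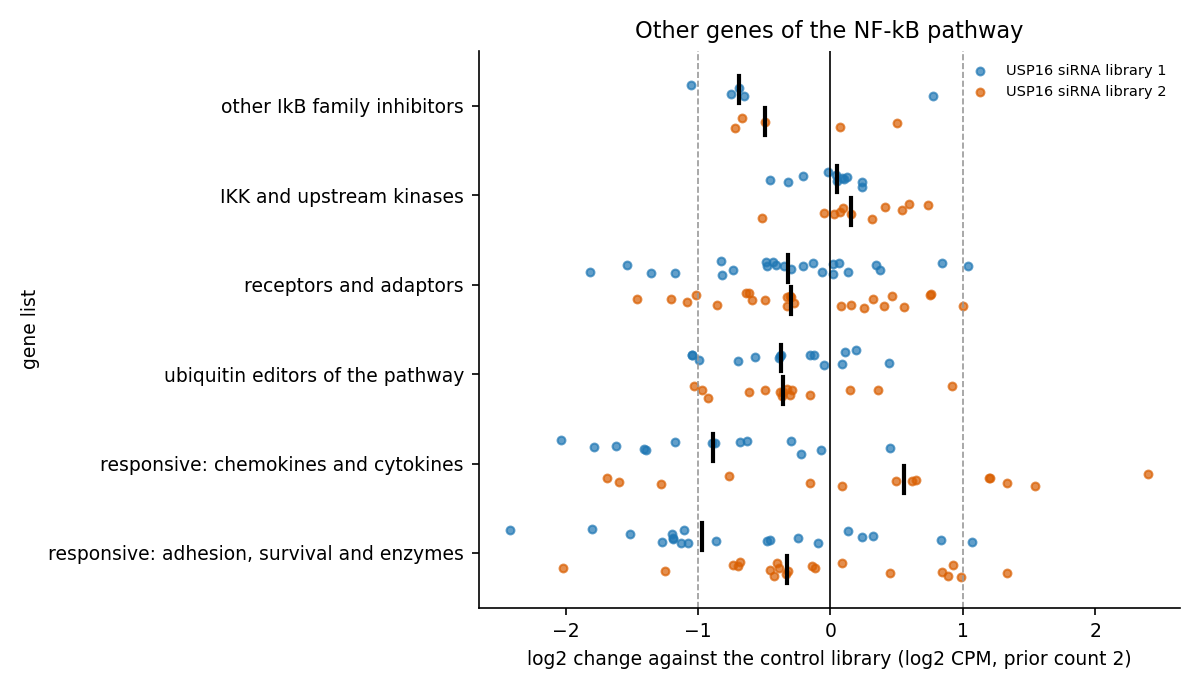
Log2 change against the control for each tested gene of the 6 other lists, with library 1 in blue, library 2 in orange, black bars at the medians and dashed lines at 2-fold. The 11 genes of the list of IKK and upstream kinases stay within the 2-fold lines, and the medians of chemokines and cytokines lie on opposite sides of 0 in the libraries.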

How the data were processed

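Each deposited file gives raw read counts for 1 library, as whole numbers per gene. Tools named in the submitters' processing notes are StringTie 1.3.0 and HISAT2 2.0.4, and the build is hg38. How reads were counted, with or without strand and on which annotation, is not given in the sources used here. For USP16 siRNA library 2, the header of the count column reads 6 instead of 2, and the label was followed.

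From these counts, edgeR 4.0.16 in R 4.3.3 was run with filterByExpr, TMM scaling (factors 0.952, 1.02 and 1.03) and the quasi-likelihood F-test, with Benjamini-Hochberg adjustment over 17287 genes and a threshold of 0.05. The fit assumes that the lone control varies like the knockdown libraries. That assumption could not be checked with 1 control. The script was checked on simulated data for the size of set changes in well-counted genes, at a lower scatter between libraries than here. That check did not cover its calls. Log2 changes per library use log2 CPM with a prior count of 2. Of the gene identifiers, 50111 matched GENCODE release 29, on the same build. Promoters came from RefSeq (GRCh38.p14).

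The members and lists were chosen with earlier results of these data known. Genes outside the members were named by rule: up to 4 per list with the largest mean change where the mean was 50 counts or more. A further gene is marked where it was named otherwise, and genes at or near 0 illustrate their list. Alternatives were no filter, a minimum mean of 100 counts, median-ratio factors, total counts, DESeq2 1.42.0, leaving out each knockdown library and a prior count of 10.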

Additional observations from a re-analysis of the deposited data

How the results depend on the processing

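The number of genes past the threshold was 3 and became 70 with no filter on low counts, 1 with a minimum mean of 100 counts, 14 with DESeq2 (8 higher, 6 lower) and 9 with total-count scaling (4 higher, 5 lower, where TMM gave 0 and 3). The number of members past it was 0 and became 1, ICAM1, with no filter. The cause was not tested. The counts of members at least 2-fold lower stayed at 3 or 4 in library 1 and at 2 in library 2 under every filter, scaling and prior count run. RELB turned from 0.01 to 0.00 (-0.003) with no filter, a value at 0 in each case. With 1 USP16 siRNA library left out, no residual degree of freedom remains and the values carry no test: RELB ranged from -0.12 to 0.13, REL from -0.43 to 0.62, NFKB1 from -1.06 to 0.35 and BIRC3 from -0.42 to 0.16, so their direction rests on which library is used, while ICAM1 ranged from -1.94 to -1.57 and CCL2 from -2.12 to -1.19. No paired analysis was possible because the groups share fewer than 2 replicate numbers. Depth limits CCL2 most, with 79 counts in library 2. With 1 control library, variation between control cultures could not be measured.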
